A study of Mus musculus with 16 samples.

Results

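Genes with very long coding sequences were examined in Hepa1-6 cells, a mouse hepatoma line, with and without exon 5 of Eef1d, by RNA-seq and by ribosome profiling (Ribo-seq). They were chosen by length and by WT RNA counts. For each gene symbol the transcript with the largest sum over the 16 libraries was taken, and a gene was kept when this transcript had 2600 or more counted codons and at least 10 counts in both WT RNA-seq libraries. Apob, Fbn1, Fbn2, Hspg2 and genes whose symbol starts with Lama or Col were left out, which removed 9 genes. The rule kept 131 of 22392 gene symbols, and these are called long genes here. Of 220 genes with 2600 or more codons, 80 were below the count minimum, and 26 of those had no RNA count in WT cells. Because WT RNA was used for the choice, TE levels in WT cells are given as a description. The comparisons with WT cells share the libraries that set the minimum, which bears mainly on the 16 long genes with under 100 counts in either WT RNA-seq library.

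During elongation, EEF1A carries each aminoacyl-tRNA to the ribosome, and the EEF1B complex, which contains EEF1D, reloads EEF1A with GTP. EEF2 then moves the ribosome to the next codon. A ribosome on a very long coding sequence passes through this cycle many more times than on an average one before it reaches the stop codon. Ribo-seq counts the fragments that ribosomes protect, and the footprint count divided by the RNA count of the same coding sequence is the translation efficiency (TE). A slower ribosome and a more frequent start of translation both raise the number of footprints per mRNA, and a footprint count does not separate them.

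WT Hepa1-6 cells and 3 exon 5 KO clones (KO1, KO2 and KO3) were compared. Each clone was grown from a single cell after CRISPR/Cas9 editing with guides on both sides of exon 5, in which the in-frame deletion was homozygous. KO1 and KO2 were made with the same pair of guides and KO3 with another pair, so a difference between a clone and WT cells cannot be told apart from differences between single cells of the parental line. Each line had 2 biological replicates, and 1 RNA-seq and 1 Ribo-seq library were made from each lysate, which gives 16 libraries.

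With 1 transcript per gene, the RNA-seq libraries held 10493030 to 12946819 counts and the Ribo-seq libraries 1138943 to 4886753, and the smallest and the largest Ribo-seq library were both from KO1. The transcript of Eef1d with exon 5 had 116% and 116.2% of the counts of the transcript without it in WT RNA-seq, and 89.8% to 92.6% in the 6 KO RNA-seq libraries. Reads on exons that both transcripts hold count for each, so the ratio falls without reaching 0. Of 15 hepatocyte markers, 9 had at least 10 counts in all 8 RNA-seq libraries, and none was at 0 in all of them. Their summed level differed between lines, with a mean of 2530 counts scaled to library size (CPM) in WT cells and of 1014, 1930 and 3716 CPM in KO1, KO2 and KO3. Among 8 fibroblast markers, 2 reached 10 counts in all RNA-seq libraries, and the list summed to 714 to 1107 CPM. Among 8 leukocyte markers, 2 also reached 10 counts in all RNA-seq libraries. That list summed to 5.39 to 22.2 CPM, highest in KO1, and Cd3e and Adgre1 were among those at 0. The 6 endothelial markers summed to 0.476 to 2.82 CPM, with Tek and Emcn at 0. In bulk samples, fewer cells of a type and less RNA per cell cannot be told apart, and the part of these differences in the values below was not tested.

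The long genes had from 2601 to 35381 counted codons, with a median of 3168, against a median of 454 over the 11215 genes that met the same RNA minimum. There were 47 under 3000 codons, 45 from 3000 to under 4000, 24 from 4000 to under 5000 and 15 of 5000 or more. The 5 longest were Ttn (titin, 35381 codons), Syne1 and Syne2 (nesprins of the nuclear envelope, 8790 and 6861), Dst (dystonin, 7708) and Neb (nebulin, 7479). Just inside the length limit were Myo9a and Usp24 with 2604 and 2608 codons. Just outside were Ankrd17 and Chd8 with 2594 and 2573 codons.

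A long annotated coding sequence is not always the one in use, because reads on shared exons are counted on every transcript of a gene. In 7 long genes, a transcript with less than 50% of the coding length held at least 40% of the WT RNA counts and at least 2 times its share of the length. Dystrophin (Dmd) was such a case, as a transcript of 608 codons, 16.6% of the length, held 60.4% of its WT RNA counts. For Tacc2, a transcript of 938 codons held 96.1% of the counts. The others were Ank2, Myo15b, Nbea, Speg and Syne1. Syne2 did not meet the last condition, but a transcript of 2143 codons, 31.2% of the length, held 57.6% of its WT RNA counts. The same transcript held 73.5% of the WT footprints of Syne2. Gm42715 and Srcap overlap on the same strand of chromosome 7, from 127519584 to 127561219 in GRCm38, and had nearly equal counts, so their values are not independent and are uncertain. Eppk1 overlaps BC024139 on the same strand and is uncertain too.

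The long genes took a smaller share of footprints than of RNA. They held 2.20% to 2.40% of the counts of the RNA-seq libraries and 0.835% to 0.960% of those of the Ribo-seq libraries. In footprints the shares were 0.851% and 0.905% in WT cells, 0.942% and 0.960% in KO1, 0.855% and 0.835% in KO2, and in KO3 0.862% and 0.868%. Both KO1 libraries lay above both WT libraries, the KO2 libraries lay on either side of the lower WT value, and the KO3 libraries lay between the WT values. Per Ribo-seq library, 105 to 120 long genes had at least 10 footprints.

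The TE level, the log2 ratio of footprint CPM to RNA CPM in 1 lysate, was low for long genes in every line. Its median was -1.31 and -1.30 in the WT lysates over 130 long genes, beside -0.17 and -0.18 over 11903 genes. In the first WT lysate the median fell with each step in coding length, from 0.23 under 200 codons to 0.04, -0.18, -0.60, -0.95 and -1.25 in the classes from 200, 400, 800, 1600 and 2600 codons. The same order of the 6 classes was found in all 8 lysates. The distance between long genes and all genes was -1.14 and -1.12 in WT cells, -1.08 and -1.18 in KO1, -1.11 and -1.23 in KO2, and in KO3 -1.15 and -1.24. The clone values lay on both sides of WT in KO1 and KO2, and both KO3 values were slightly lower. The pooled SD between replicates of a line was 0.0629 for this distance (n = 4 lines of 2 lysates).

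**Figure D1:**
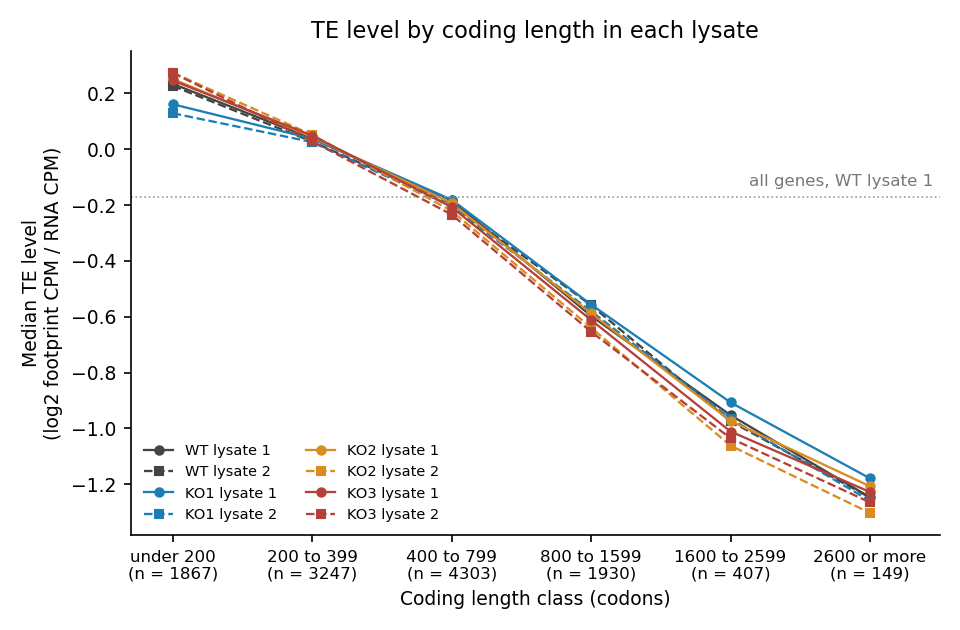
Median TE level (y axis, log2 footprint CPM over RNA CPM) by class of coding length (x axis, codons, with the number of genes) in each of the 8 lysates. The lines of WT cells and the 3 clones run together and fall from above 0 under 200 codons to between -1.18 and -1.30 at 2600 or more codons, a class that also holds the genes left out by name.

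Long genes were unlike each other in TE. Among the 114 with at least 10 footprints in both WT libraries, the mean WT level ran from -4.27 for Dst to 0.23 for Dmd, a 22.6-fold range, and 97.4% lay below the median of all genes. The order was stable between the WT lysates, with Pearson's r of 0.929 across these genes, which share libraries and are not independent. Genes of chromatin, transcription and splicing had the lowest median of the groups with more than 2 members, -2.11 over 22 genes. Kmt2d, a methyltransferase of histone H3 at enhancers, had TE levels of -2.68 and -2.72 in the WT lysates, while Srrm2, a splicing cofactor, had -0.57 and -0.63. Flna and Flnc, which bind actin, and Utp20, a factor of ribosome assembly, are on none of the lists and do not enter the medians or counts of the groups they would suit. The 12 cytoskeletal linkers had a median of -1.60, the 15 genes on none of the lists -1.38, the 14 ubiquitin ligases and proteases -1.31, the 14 lipid transfer and trafficking proteins -1.24 and the 16 motor, centrosome and Golgi proteins -1.20. The 6 cell surface receptors had a median of -1.06, the 8 PIKK kinases and DNA repair genes -0.89, and the 3 IP3 receptor calcium channels (Itpr1, Itpr2 and Itpr3) -0.81.

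**Figure D2:**
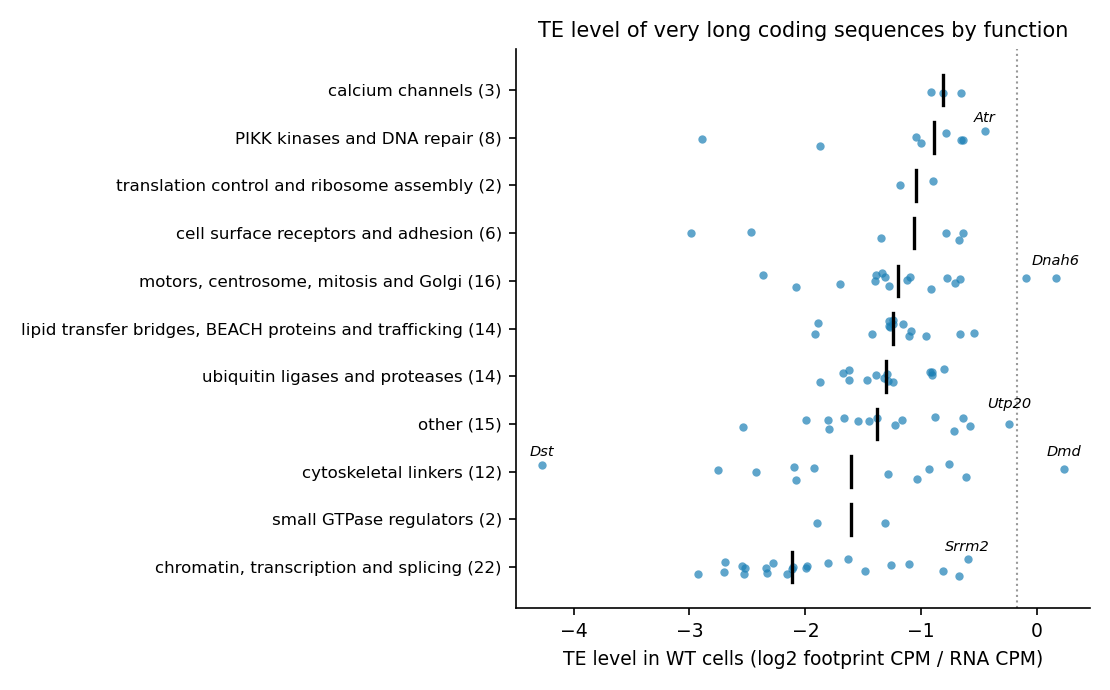
Mean TE level in WT cells (x axis, log2 footprint CPM over RNA CPM) of the 114 long genes with at least 10 footprints in both WT libraries, by function (y axis, number of genes in brackets). Points are genes, black bars group medians and the dotted line the median of all genes, -0.17, which 3 long genes exceed.

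Dst, which links intermediate filaments, actin and microtubules, stood apart at the low end. It had 579 and 638 CPM in WT RNA and 30.1 and 32.0 CPM in WT footprints, and its TE level was -4.24 and -4.30. In KO1 its TE level was -3.91 and -4.15, in KO2 -4.23 and -4.58 and in KO3 -4.66 and -4.51, so the KO1 lysates lay above and the KO3 lysates below both WT lysates. The TE change was not called in any clone (edgeR adjusted p = 0.77, 1 and 0.866), and in KO3 its footprints fell by 0.51 and its RNA by 0.19 on the log2 scale. The transcription factor Zfhx3 was also low (-2.93). At the high end, Dmd and the axonemal dynein heavy chains Dnah6 (0.16) and Dnah7b (-0.09) were the only 3 above the median of all genes. Dnah7b has close paralogues and its value is uncertain, and Dmd is the gene described above with most counts on a short transcript. Utp20 (-0.24) and the DNA damage kinase Atr (-0.45) followed.

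The start of translation is shown for both ends of this range, since initiation enters TE beside elongation. Each run is the sense strand around the annotated start codon, which is in capitals, from the GENCODE vM21 transcripts on GRCm38, for Dst and Zfhx3 at the low end and for the 3 long genes with the highest TE whose counts do not lie on a short transcript and whose transcript was matched in the annotation, which Dnah7b was not.
Dst: gcccgcaccATGatcgccgccgctttcctc
Zfhx3: ggccttaccATGgaaggctgtgactcgccc
Dnah6: ggaataaggATGgctttccaaggcacagag
Utp20: gccgcagccATGaagccaaagccactttcg
Atr: ggtgtcaccATGggcgaccacgggctggag
These transcripts lie on chr1:33908225-34307592 (plus strand, Dst), chr8:107942644-108961630 (plus, Zfhx3), chr6:73017606-73221631 (minus, Dnah6), chr10:88746607-88826804 (minus, Utp20) and chr9:95857597-95951644 (plus, Atr). Their annotated 5' leaders held 0 and 10 ATG triplets in Dst and Zfhx3 and 0, 1 and 0 in Dnah6, Utp20 and Atr. The leader of Dst was 47 bases long and held none, so a leader rich in ATG was not shared by the low end. Over 112 of the long genes, Spearman's rho of the TE level was -0.24 with the number of leader ATG triplets, -0.14 with coding length and -0.35 with proline triplets (PPP) per 1000 codons. These are descriptions across genes of the same libraries.

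Annotation of 126 of the 131 long genes could be matched by transcript and length. Their median number of exons was 48, against 9 in 10986 other genes over the RNA minimum, and their median genomic span was 117 kb, against 21.7 kb. Their coding sequences were poorer in GC, with a median of 49.8% against 52.8%, and at the wobble base of codons 51.4% against 60.2%. Serine was more frequent (9.17% of residues against 7.65%) and valine was close (5.96% against 6.09%). Runs of proline slow ribosomes and depend on eIF5A. At least 1 PPP triplet was present in 68.3% of the long genes and 23.6% of the others, but per 1000 codons the means were close, 1.07 and 1.11. A purine stood 3 bases before the start codon in 94.4% of 107 long genes and 86.5% of 10705 others.

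To ask whether translation over long coding sequences changed without exon 5, the TE change was taken as the footprint change minus the RNA change between a clone and WT cells, tested per gene as an interaction with edgeR's quasi-likelihood method over all genes. No long gene passed an adjusted p of 0.05 in KO1 (0 of 129 tested) or KO2 (0 of 127), and 1 of 128 did in KO3, the PIKK family member Trrap. Only 114, 115 and 116 long genes had enough footprints to be tested in footprints in KO1, KO2 and KO3. The rest could hardly be called for TE, but they enter these counts and the medians of TE change below. Over all genes the shares called were 0.0942%, 0.0173% and 0.104% in KO1, KO2 and KO3. At an unadjusted p under 0.05, 9 long genes in KO1 (6.98%, beside 7.08% of all genes), 8 in KO2 (6.30%, beside 4.28%) and 13 in KO3 (10.2%, beside 6.07%) were found. Long genes had smaller standard errors of the TE change, with medians of 0.17, 0.167 and 0.169 in the 3 clones. Over all genes these medians were 0.216, 0.212 and 0.206, and the part of this in the shares was not tested. By DESeq2, no long gene was called in any clone. The mean TE change of the 3 clones, fitted over all 16 libraries, was called for 0 of 130 long genes and for 0% of 11903 genes. At an unadjusted p under 0.05 it held 5 long genes (3.85%, beside 3.79% of all genes).

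In KO1, KO2 and KO3 the long genes had median TE changes of 0.07, -0.06 and -0.06, beside 0.02, 0.00 and -0.01 over all genes. The differences from all genes were 0.06, -0.06 and -0.05 on the log2 scale, and each was smaller than the replicate SD of 0.0629. In the same order, 62.8%, 34.6% and 34.4% of the long genes had a TE change above 0, while 53.1%, 50.2% and 47.5% of all genes did. The medians therefore did not share a direction, but with differences below the replicate SD the direction in a single clone is not settled. The next class of coding length, from 1600 to under 2600 codons, had medians of 0.06, -0.07 and -0.08, and genes under 200 codons had -0.03, 0.07 and 0.05. The medians were highest at the longest class in KO1, while in KO2 and KO3 they were lowest from 1600 to under 2600 codons. Spearman's rho of TE change and coding length over all genes was 0.07, -0.14 and -0.14, and within the long genes it was -0.02, 0.10 and 0.05. The comparisons share the WT libraries, so the values of the 3 clones are not independent.

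**Figure D3:**
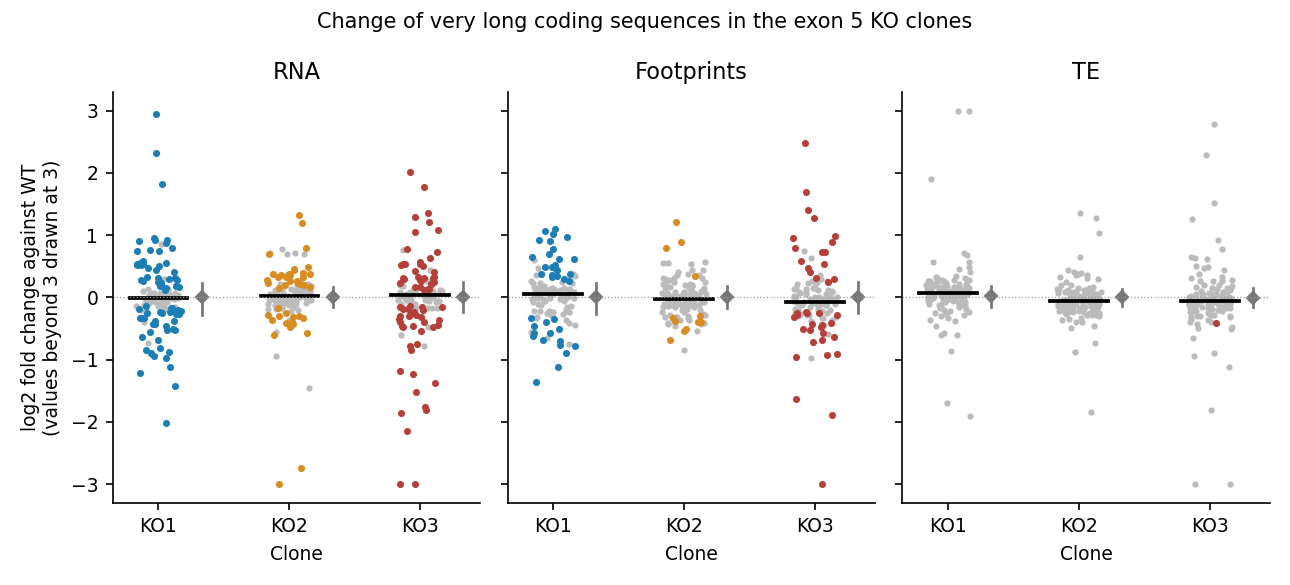
log2 fold change against WT (y axis, values beyond 3 drawn at 3) of each long gene in RNA, footprints and TE in the 3 clones (x axis). Coloured points passed an adjusted p of 0.05 in edgeR's test, grey points did not, black bars are long-gene medians, and diamonds with lines give the median and quartiles of all genes. Medians of TE change lie at 0.07, -0.06 and -0.06, and 1 point, Trrap in KO3, is coloured in the TE panel.

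Since RNA and footprints of a replicate come from 1 lysate, a term for the lysate was added to the model as an alternative. Ahnak, a very large scaffold protein below the plasma membrane, was then called in KO1. Its TE level was -1.28 and -1.30 in the WT lysates and -0.96 and -1.06 in KO1, with no overlap. The TE change was 0.27 (standard error 0.110, edgeR adjusted p = 0.62) without the term and 0.29 (standard error 0.0643, edgeR adjusted p = 0.00488) with it. RNA and footprints of Ahnak rose together from lysate 1 to lysate 2 within each line, for instance 1491 and 1749 CPM in WT RNA and 615 and 712 CPM in WT footprints. Ahnak was the only call of a long gene added in a single clone by the lysate term.

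The clones were next compared with each other, a test in which the WT level cancels. TE differed between the 3 clones for 5 of 130 long genes (3.85%), while 1.03% of all genes were called. At an unadjusted p under 0.05 it was 27 (20.8%, beside 10.3% of all genes). Standard errors of the TE change against WT were smaller for long genes, as given above, and their part in these shares was not tested. The 5 were Trrap, Nf1, Flna, Ubr4 and Fat1. With the lysate term 11 were called, which were these 5 with Ahnak, Dst, Flnc, Gcn1, Hivep1 and Lrp1. The count rested on the first KO1 lysate, as none remained without it, and it was 3 without the first WT replicate, 4 without the second of KO2, and 2 when the second of WT, the second of KO1, the first of KO2 or either of KO3 was left out.

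Trrap is the scaffold subunit of histone acetyltransferase complexes and lies on chromosome 5 of GRCm38, from 144768794 to 144859778. Its RNA was 498 and 529 CPM in WT cells, 976 and 966 in KO1, 533 and 572 in KO2, and in KO3 465 and 458. Footprints were 283 and 315 CPM in WT cells, 590 and 574 in KO1, 258 and 272 in KO2, and in KO3 197 and 204. The level of RNA and that of footprints were both far above WT in KO1, and in KO3 footprints were further below WT than RNA was. The TE level was -0.81 and -0.75 in WT cells, -0.73 and -0.75 in KO1, -1.04 and -1.07 in KO2, and in KO3 -1.23 and -1.16, with KO2 and KO3 below all WT and KO1 lysates. The TE change in KO3 was -0.41 (standard error 0.0868, edgeR adjusted p = 0.0277), and the clones differed with an edgeR adjusted p of 0.00314. The call in KO3 was lost by DESeq2 (adjusted p = 0.0793) and when any of the 4 lysates of WT and KO3 was left out, with edgeR adjusted p-values of 0.205 and 0.462 without the first and the second WT replicate and 0.413 and 0.274 without those of KO3, while the TE change stayed between -0.44 and -0.36. The difference between clones was lost without the first replicate of KO1 (edgeR adjusted p = 0.169) or of KO3 (0.0543).

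RNA of Nf1 (neurofibromin, an inhibitor of Ras) was called in KO2 alone, with a rise of 0.20, and was at 170 and 167 CPM in WT cells, 159 and 182 in KO1, 197 and 189 in KO2, and in KO3 157 and 170. Its footprints were 61.3 and 74.4 CPM in WT cells, 80.3 and 88.6 in KO1, 59.5 and 61.3 in KO2, and in KO3 62.1 and 57.5. TE changes of 0.29 in KO1 and -0.34 in KO2 were not called against WT (edgeR adjusted p = 0.687 and 1), but the clones differed (edgeR adjusted p = 0.016), and that call was lost without the first replicate of KO1 (0.306) or of KO2 (0.107). In TE level the KO1 lysates (-0.99 and -1.04) lay above all others and the KO2 lysates (-1.72 and -1.62) below all others.

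Flna (filamin A, which crosslinks actin) had TE levels of -1.11 and -1.23 in WT cells, -0.98 and -0.95 in KO1, -1.32 and -1.41 in KO2, and in KO3 -1.04 and -1.05. For Ubr4, a ubiquitin ligase of the N-degron pathway, they were -1.31 and -1.17, -1.19 and -1.17, -1.30 and -1.50, and -1.46 and -1.80 in the same order of lines. Those of the protocadherin Fat1 were -0.78 and -0.79, -0.67 and -0.72, -0.75 and -0.86, and -1.03 and -1.05. Flna was lowest in KO2 and Fat1 in KO3, while the KO2 and KO3 lysates of Ubr4 overlapped. The differences between clones had edgeR adjusted p-values of 0.0363, 0.0464 and 0.0476 for Flna, Ubr4 and Fat1. With DESeq2's size factors and all libraries kept, Ubr4 and Fat1 were no longer called (edgeR adjusted p = 0.0552 and 0.0579). Neither was called when at least 10 counts were required in every library (edgeR adjusted p = 0.0895 and 0.111). Flna kept its call in both settings. The call of Flna was lost without any 1 lysate but the first of WT, with adjusted p-values from 0.0532 to 0.249. That of Ubr4 was lost without any lysate of WT or KO1 or the second of KO3 (0.0539 to 0.549), and that of Fat1 without any but the second of KO2 (0.0598 to 0.337).

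**Figure D4:**
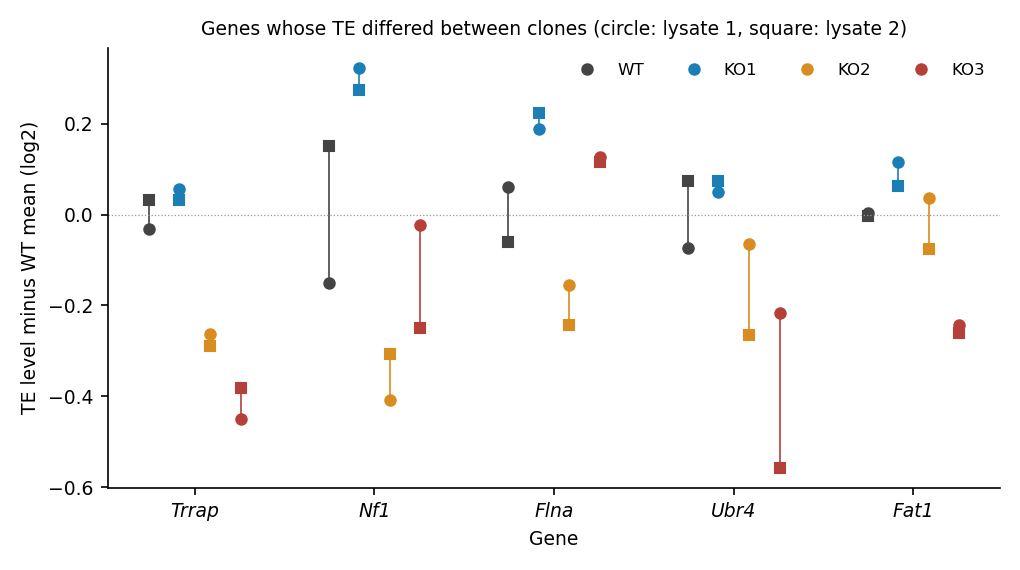
TE level minus the WT mean (y axis, log2) in each lysate of WT cells and the 3 clones for the 5 long genes whose TE differed between clones (x axis). The mean of KO1 is above 0 for all 5 genes, the mean of KO2 is lowest for Nf1 and Flna, and that of KO3 is lowest for Trrap, Ubr4 and Fat1.

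RNA of long genes changed widely, in both directions, and mostly in 1 clone or in opposite directions in different clones. In KO1, 40 of 131 long genes rose (30.5%, where 22.1% of all genes rose) and 37 fell (28.2%, all genes 24.6%). In KO2, 27 rose (20.6%, all genes 11.6%) and 16 fell (12.2%, all genes 8.84%). In KO3, 36 rose and 36 fell (27.5% each, all genes 23.1% and 22.3%). The shares exceeded those of all genes in every case, and long genes had smaller standard errors, with medians of 0.0708, 0.0774 and 0.0736 in the 3 clones against 0.108, 0.111 and 0.106 over all genes. The median RNA change was 0.00, 0.03 and 0.03. Without the first WT replicate, 28 rather than 43 long genes were called in KO2, and by DESeq2 26 were.

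RNA differed between clones for 109 of 131 long genes (83.2%), while 74% of all genes did. Of the 131, 21 were called in no clone (16%, all genes 28.6%), 47 in 1 (35.9%, all genes 38.3%), 44 in 2 (33.6%, all genes 25.2%) and 19 in 3 (14.5%, all genes 7.92%). In all, 42 rose in at least 1 clone and fell in another (32.1%, all genes 20.1%). Brca2, a gene of DNA repair by homologous recombination, was the only long gene called higher in all 3 clones (0.763%, all genes 0.807%). It had 89.6 and 89.6 CPM in WT RNA, 147 and 157 in KO1, 121 and 104 in KO2, and in KO3 111 and 107, with no overlap with WT. Its log2 fold changes were 0.76, 0.33 and 0.28 (standard errors 0.0665, 0.079 and 0.0711), and its footprints were called in KO1 alone. No long gene was called lower in RNA in all 3 clones, beside 0.886% of all genes.

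Mgam, the intestinal brush border enzyme maltase-glucoamylase, changed in each clone and not in the same direction. Its RNA was 51.0 and 53.1 CPM in WT cells, 25 and 23 in KO1, 121 and 138 in KO2, and in KO3 1.98 and 3.69, and the pairs of libraries of the 4 lines did not overlap. Footprints followed, with 17.7 and 14.5 CPM in WT cells, 7.30 and 8.52 in KO1, 39.7 and 35.5 in KO2, and in KO3 1.72 and 0.933. RNA changed by -1.12, 1.32 and -4.20 on the log2 scale and footprints by -1.12, 1.21 and -3.54, and the call of footprints in KO1 was lost by DESeq2 (adjusted p = 0.186) and by edgeR without the first replicate of WT (adjusted p = 0.0625) or of KO1 (0.149).

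Counts for the functional groups are to be read beside the shares of all genes that rose and fell in RNA, 22.1% and 24.6% in KO1, 11.6% and 8.84% in KO2, and in KO3 23.1% and 22.3%. Of the 10 cell surface and adhesion genes, 7 rose in KO3 RNA (70.0%) and 0 fell. In KO1 4 rose and 3 fell, and in KO2 2 rose and 2 fell. RNA of Lrp1, an endocytic receptor of the liver for lipoprotein remnants, was 211 and 186 CPM in WT cells, 221 and 206 in KO1, 152 and 148 in KO2, and in KO3 653 and 702. Its footprints were 130 and 119, 166 and 153, 92.4 and 77.4, and 413 and 394 CPM in the same order. Lrp1 thus rose in KO3 and fell in KO2 in RNA and in footprints, and in KO3 the log2 fold changes were 1.77 (standard error 0.0538, edgeR adjusted p = 4.96e-47) and 1.69 (standard error 0.0743, edgeR adjusted p = 6.46e-23). Cubn (cubilin, the receptor for intrinsic factor and vitamin B12) rose from 11.3 and 13.6 CPM in WT RNA to 53.4 and 47.1 in KO3. In footprints it went from 7.32 and 8.31 to 43.5 and 43.2 CPM. Pkhd1 (fibrocystin of the primary cilium) fell in KO1 and rose in KO2 and KO3, by -0.81, 0.70 and 0.63 in RNA and by -0.70, 0.80 and 0.73 in footprints. At low counts, Lrp2 (megalin) and Celsr1 (a cadherin of planar polarity) rose in KO1 RNA, by 2.32 and 1.81, and the teneurin Tenm4 changed in KO1 and KO2 by -2.01 and -2.75. Tenm4 had 121 RNA counts over both WT libraries, so the choice by WT counts bears on its falls. The median RNA change of the group was 0.14, -0.26 and 0.40 in KO1, KO2 and KO3. The summed hepatocyte markers were highest in KO3 and lowest in KO1, and the summed fibroblast markers were highest in KO3 and lowest in KO2. A link between the group and the markers was not tested.

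Of the 14 cytoskeletal linkers, 9 fell (64.3%, all genes 24.6%) and 2 rose in RNA in KO1, 3 fell (21.4%, all genes 8.84%) and 2 rose (14.3%, all genes 11.6%) in KO2, and 5 fell (35.7%, all genes 22.3%) and 6 rose (42.9%, all genes 23.1%) in KO3. RNA of Dsp, the desmosomal linker desmoplakin, was 331 and 324 CPM in WT cells, 190 and 176 in KO1, 255 and 282 in KO2, and in KO3 684 and 698. Footprints of Dsp were 180 and 164, 97.3 and 81.0, 128 and 134, and 328 and 313 CPM, so both measures fell in KO1 and KO2 and rose in KO3. Syne2 fell in KO1 (RNA 70.3 and 73.3 CPM in WT cells, 34.2 and 38.8 in KO1) and rose in KO2 and KO3 RNA. Its footprint fall in KO1 (-1.36, edgeR adjusted p = 8.77e-05) was lost by DESeq2 and by edgeR without the first KO1 replicate (adjusted p = 0.149). Syne1, with counts on a short transcript, changed in RNA by -0.42, -0.33 and 0.31, and Eppk1 (epiplakin) rose in KO1 and KO2 and changed by -1.23 in KO3. Ttn, the giant protein of muscle sarcomeres, had 2.27 and 2.56 CPM in WT RNA and 19.1 and 18.4 in KO1, a rise of 2.95 (standard error 0.211), but at most 1.01 CPM of footprints in any library, too few to pass the count filter. Neb was at 1.27 and 1.11 CPM in WT RNA and at 0 and 0.164 in KO3. Neb had 14 and 13 RNA counts in the WT libraries, close to the count minimum. The choice by WT counts therefore bears on its fall in KO3.

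The IP3 receptors, which release calcium from the ER, were all called in KO1 RNA, 2 higher and 1 lower, and Itpr1 was also called higher in KO2 and lower in KO3. Itpr1 RNA changed by 0.48, 0.23 and -0.76, Itpr2 by 0.93, -0.20 and 0.05 and Itpr3 by -0.56, -0.09 and 0.04 in KO1, KO2 and KO3. Footprints of Itpr3 were 184 and 165 CPM in WT cells, 118 and 118 in KO1, 133 and 144 in KO2, and in KO3 152 and 142, and every clone library was below both WT libraries. Footprints of Utrn, utrophin, changed by -0.63, -0.39 and -0.32. Itpr3 and Utrn were the only long genes tested in all 3 clones that were called lower in footprints in each (1.75% of 114, all genes 0.613%), while 0 were called higher in all 3 (all genes 0.198%). The TE changes of Itpr3, -0.01, -0.25 and -0.29, were not called.

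In the group of chromatin, transcription and splicing, 6 of 22 genes rose (27.3%, all genes 22.1%) and 5 fell (22.7%, all genes 24.6%) in RNA in KO1. In KO2, 4 rose (18.2%, all genes 11.6%) and 2 fell (9.09%, all genes 8.84%), and in KO3 6 rose (27.3%, all genes 23.1%) and 8 fell (36.4%, all genes 22.3%). Chd7, a chromatin remodeller, had 63.0 and 66.7 CPM in WT RNA and 30.9 and 25.2 in KO1, and it changed by -1.21 in KO1 and -0.85 in KO3. Of the 8 PIKK kinases and DNA repair genes, 2 rose and 3 fell in KO1 (25% and 37.5%, all genes 22.1% and 24.6%), 2 rose and 1 fell in KO2 (25% and 12.5%, all genes 11.6% and 8.84%), and 3 rose and 3 fell in KO3 (37.5% each, all genes 23.1% and 22.3%). Smg1, the kinase of nonsense-mediated decay, fell by 0.27 in KO1. Of 17 motor, centrosome, mitosis and Golgi genes, 7 rose in KO1 and 7 in KO2 (41.2% each, all genes 22.1% and 11.6%), 2 fell in each of these clones (11.8%, all genes 24.6% and 8.84%), and 4 rose and 5 fell in KO3 (23.5% and 29.4%, all genes 23.1% and 22.3%). Golgb1, the Golgi tether giantin, had 81.7 and 79.5 CPM in WT RNA, 134 and 146 in KO2, and in KO3 54.7 and 61.3. The dynein Dnah6 had 56.2 and 59.9 CPM in WT RNA and 19.7 and 20.7 in KO3. Ranbp2, a nucleoporin, fell by 0.42 in KO2 RNA and by 0.50 in KO2 footprints.

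Of the 14 ubiquitin ligases and proteases, 4 rose and 4 fell in KO1 RNA (28.6% each, near the 22.1% and 24.6% of all genes), 0 rose and 1 fell in KO2, and 1 rose (7.14%, all genes 23.1%) and 5 fell (35.7%, all genes 22.3%) in KO3. Huwe1, a ligase of the HECT class, changed in RNA by 0.15, 0.11 and -0.08, and of these values only that in KO1 was called. Of the 15 lipid transfer, BEACH and trafficking genes, 6 rose (40%, all genes 22.1%) and 1 fell in KO1, 3 rose and 2 fell in KO2 (20.0% and 13.3%, all genes 11.6% and 8.84%), and 1 rose and 4 fell in KO3 (6.67% and 26.7%, all genes 23.1% and 22.3%). Lrba, a BEACH protein, had 36.8 and 40.2 CPM in WT RNA and 69.0 and 60.5 in KO1, and Dmxl2, a regulator of the vacuolar proton pump, had 21.6 and 20.4 CPM in WT RNA and 4.68 and 4.75 in KO3. The list of translation control and ribosome assembly held Gcn1, which activates the kinase GCN2 on stalled ribosomes, and Mdn1, an AAA ATPase of the large subunit. Footprints of Gcn1 were 206 and 198 CPM in WT cells, 207 and 198 in KO1, 193 and 179 in KO2, and in KO3 174 and 159, and its footprints were called lower in KO3 (-0.28, edgeR adjusted p = 0.00463), while its RNA change was not called in any clone. Mdn1 fell in KO3 in RNA (-0.40) and in footprints (-0.52). Of the GTPase regulators, Trio changed in RNA by -0.17, -0.05 and 0.04, called in KO1 alone. Among the 24 genes on none of the lists, 6 rose and 8 fell in KO1 (25% and 33.3%, all genes 22.1% and 24.6%), 5 rose and 3 fell in KO2 (20.8% and 12.5%, all genes 11.6% and 8.84%), and 8 rose and 4 fell in KO3 (33.3% and 16.7%, all genes 23.1% and 22.3%). Bsn (bassoon) fell from 3.73 and 4.94 CPM in WT RNA to 0.281 and 0.244 in KO2, and Bahcc1 rose in KO3 by 1.36. Bsn had 99 RNA counts over both WT libraries, so the choice by WT counts bears on its fall.

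Footprints changed with RNA. In KO1, 23 of 114 long genes tested rose (20.2%, all genes 11.7%) and 15 fell (13.2%, all genes 15.2%). In KO2, 4 of 115 rose (3.48%, all genes 6.74%) and 8 fell (6.96%, all genes 4.96%). In KO3, 17 of 116 rose (14.7%, all genes 14.9%) and 23 fell (19.8%, all genes 15.7%). Of the 38 footprint calls in KO1, 36 were also RNA calls (94.7%, all genes 87.6%), all 36 in the same direction. The same was true of 9 of 12 in KO2 (75%, all genes 77.7%) and 35 of 40 in KO3 (87.5%, all genes 84.7%), and over all genes the direction was shared by 99.8% to 99.9% of such pairs. Pearson's r of RNA and footprint change across the long genes was 0.897, 0.805 and 0.929, beside 0.874, 0.773 and 0.898 over all genes, a description over genes of 1 set of libraries. Prune2 (RNA -0.94 and 1.21, footprints -0.69 and 1.40 in KO1 and KO3) and Helz2, a helicase coactivator (footprints 10.4 and 15.0 CPM in WT cells, 27.4 and 23 in KO1), were further calls in footprints. The call of Helz2 was lost by DESeq2 (adjusted p = 0.0744) and by edgeR without the first KO1 replicate (0.055). The number of footprint calls in KO1 fell to 24 without the first WT replicate, to 16 without the first KO1 replicate and to 11 by DESeq2, and by DESeq2 it was 5 in KO2 and 20 in KO3.

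**Figure D5:**
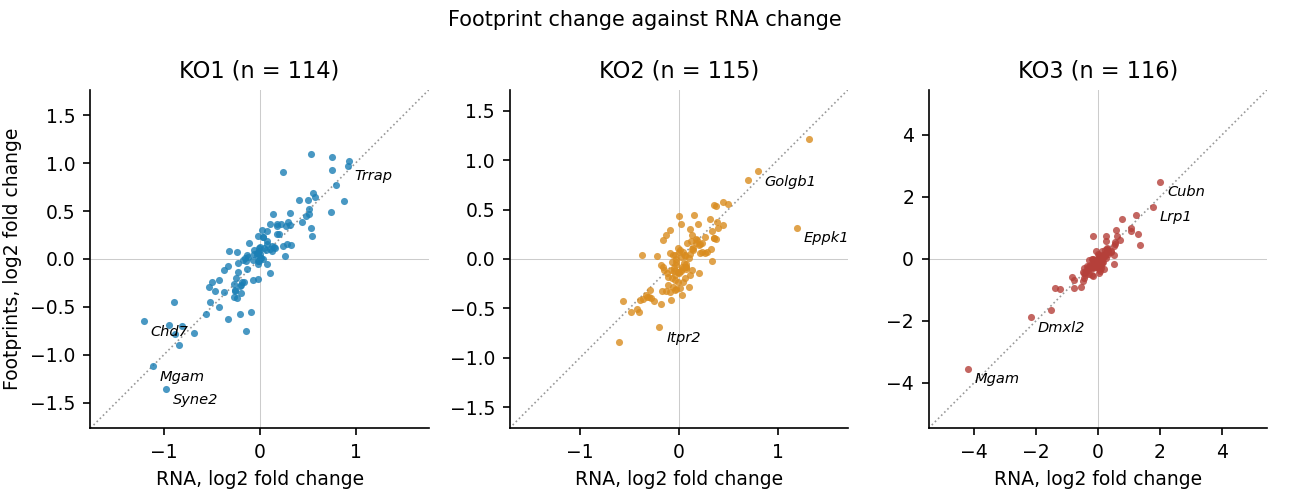
Footprint change (y axis) against RNA change (x axis), both as log2 fold change against WT, for the long genes tested in both assays in each clone. The dotted line marks equal change, and the points follow it, with Pearson's r of 0.897, 0.805 and 0.929 for KO1, KO2 and KO3.

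Genes of elongation and related steps were read from a list of 21 genes, of which 18 to 20 were tested. Beside the genes of EEF1A, the EEF1B complex, EEF2 and eIF5A, it held the mitochondrial factors Tufm, Tsfm, Gfm1, Gfm2 and Guf1. It also held Eef2k, Hbs1l, Pelo, Abce1, Gtpbp1, Gtpbp2 and Eefsec, so its counts are not those of the cytosolic elongation cycle alone. In RNA, 10 of 19 rose and 4 fell in KO1 (52.6% and 21.1%, all genes 22.1% and 24.6%), 1 rose and 2 fell in KO2 (5.26% and 10.5%, all genes 11.6% and 8.84%), and 8 rose and 4 fell in KO3 (42.1% and 21.1%, all genes 23.1% and 22.3%). In footprints, 5 of 18 rose and 3 fell in KO1 (27.8% and 16.7%, all genes 11.7% and 15.2%), 2 of 19 rose and 2 fell in KO2 (10.5% each, all genes 6.74% and 4.96%), and 3 of 19 rose and 6 fell in KO3 (15.8% and 31.6%, all genes 14.9% and 15.7%). For TE none was called in any clone. Eef2, the translocase, rose by 0.38 in KO1 and 0.35 in KO3 in RNA and fell by 0.37 in KO2. Eef1d itself, at its most counted transcript, changed in RNA by -0.08 (standard error 0.0574, edgeR adjusted p = 0.272) in KO1, 0.10 (standard error 0.0593, edgeR adjusted p = 0.266) in KO2 and -0.53 (standard error 0.062, edgeR adjusted p = 1.1e-11) in KO3. Its footprints changed by -0.32 (standard error 0.0774, edgeR adjusted p = 0.00104), 0.07 (standard error 0.0692, edgeR adjusted p = 0.621) and -0.66 (standard error 0.0748, edgeR adjusted p = 1.63e-09) in the same order, and were called lower in KO1 and KO3. Vars, the valyl-tRNA synthetase bound to the EEF1B complex, rose in RNA in KO1 (0.33) and KO3 (0.14).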

How the data were processed

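RNA-seq and Ribo-seq libraries were prepared from the same lysates of WT Hepa1-6 cells and 3 exon 5 KO clones, with 2 replicates each. Per the methods, the authors trimmed adapters, removed reads of noncoding RNA, aligned the rest to mm10 with the GENCODE vM23 annotation and placed each footprint on a codon by a fixed offset. The submitters' processing notes name fastp 0.21.0 and STAR 2.7.0a. The labels name polyA RNA and the methods rRNA depletion for RNA-seq, which could not be settled. The deposited table holds raw counts per transcript for the 16 libraries. These were made by the authors over the coding sequence without its first and last 5 codons, and the size column gives the counted codons. No column of per-sample values was left unused. The members and gene lists were chosen with earlier results of these data known.

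For each gene symbol the transcript with the largest sum of counts was kept (22392 of 67139 transcripts). Counts were scaled by TMM within each assay and filtered with filterByExpr. They were tested with edgeR 4.0.16 in R 4.3.3 by quasi-likelihood F-tests with Benjamini-Hochberg adjustment over all genes tested and a threshold of 0.05. RNA and footprints of a clone were each fitted with the WT libraries of that assay, and TE as the interaction of line and assay in the 8 libraries of both lines. The mean of the clones and the differences between clones were fitted over all libraries. TE levels are log2 ratios of CPM with a prior count of 0.5. DESeq2 1.42.0 was an alternative, beside other scaling, filters, transcripts, thresholds of length and RNA, thinning to the smallest library, omission of each replicate, and terms for the replicate number or the lysate. The scripts were tested on simulated data. Features came from GENCODE vM21 on GRCm38, the same build as mm10. Python 3.11.15 with numpy 2.4.6, pandas 2.3.3, scipy 1.17.1 and matplotlib 3.10.9 was used for tables and figures.

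RNA and footprints of 1 lysate are paired by design. Their deviations from the line means correlated at 0.11 to 0.28 over 4014 genes in the 4 lines, while RNA and footprints of different lines with the same number correlated at -0.01 to 0.21, so the correlations do not show the pairing by themselves. Genes named are the 5 longest, the 5 with the most WT RNA counts, the 2 with the most WT RNA counts in each group, the 3 largest rises and falls per clone and assay among called genes whose replicates did not overlap with WT, every gene called for TE, the genes next to the length limit on each side, and Eef1d. Some items are not reported here. Others, such as Brca2, Utrn, Ubr4 and the genes at the ends of the TE range, were chosen after their values were seen. Depth was 10493030 to 12946819 counts for RNA-seq and 1138943 to 4886753 for Ribo-seq, so footprints limit the precision. The median long gene had 40 to 173 footprints per library. The labels name the replicates as separate samples of a line, and p-values measure the spread between 2 lysates of 1 line.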

Additional observations from a re-analysis of the deposited data

Results flagged for a closer look

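TE differed between the 3 clones for 5 long genes by edgeR's quasi-likelihood test over all 16 libraries. For Trrap the adjusted p was 0.00314, with TE changes of 0.06, -0.27 and -0.41 in KO1, KO2 and KO3. Nf1 had an adjusted p of 0.016 and changes of 0.29, -0.34 and -0.11. Flna (0.0363) changed by 0.19, -0.20 and 0.12, Ubr4 (0.0464) by 0.07, -0.15 and -0.37, and Fat1 (0.0476) by 0.10, -0.01 and -0.24. The estimates of all 5 were higher in KO1 than in KO2. None of the 5 was called without the first KO1 lysate, which has the largest Ribo-seq library.

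RNA of 19 of the 45 long genes named by rule was called higher in 1 clone and lower in another. Of the long genes 32.1% were, and of all genes 20.1%. Some of the 45 were named for their large RNA changes. The choice by opposite calls largely fixed the outcome of a test between clones, so its p-values are no separate support. Each of the 19 differed between the clones by the same kind of test over the 8 RNA-seq libraries. Among cell surface genes these were Lrp1 (adjusted p = 2.80e-27), Pkhd1 (3.99e-18), Tenm4 (1.45e-12) and Fat1 (8.70e-09). Among cytoskeletal linkers they were Dsp (4.15e-26), Syne2 (9.45e-18), Eppk1 (1.71e-15), Ahnak (3.07e-11) and Syne1 (1.68e-07). Among genes on none of the lists they were Mgam (2.63e-28), Prune2 (1.15e-23), Bahcc1 (3.37e-16) and Flna (4.78e-09). The dynein Dnah6 (1.17e-19), the Golgi tether Golgb1 (7.79e-17), Trrap (6.43e-20), the calcium channel Itpr1 (1.19e-15), Mdn1 (5.85e-10) and the BEACH protein Nbeal1 (2.79e-06) completed them. All 3 clones lack exon 5, and a clone cannot be told apart from its founder cell.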

How the results depend on the processing

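Of 350 alternative values of the 21 summary results, 314 stayed within 1.5 times of the reported count or within 1 SD between replicates of the reported shift. Each reported RNA and TE shift was smaller than its SD, so a shift lost to 0 would be among the 314. A count of 0 that stayed at 0 is among them too. Of 156 alternative shifts of a median, 6 changed sign, 5 of them within 1 SD. DESeq2 called fewer long genes, 19.8% rather than 32.8% for RNA in KO2, and 9.65%, 4.35% and 17.2% rather than 33.3%, 10.4% and 34.5% for footprints in KO1, KO2 and KO3, and 0% for TE in KO3. Thinning all libraries to the smallest of their assay gave 22.9% for footprints and 0% for TE in KO3. With a limit of 3500 codons the values were 21.4% (RNA, KO2), 6.38% (footprints, KO2), 1.85% (TE, KO3) and a median RNA shift of -0.0228 in KO3, where the reported shift was 0.0311. With 2000 codons TE calls were 0.348% in KO1 and 0.351% in KO3, and with the extracellular matrix genes 0.730% and 1.48%. DESeq2's size factors gave 2.31% for TE differing between clones. Leaving out 1 replicate gave 21.4% to 35.1% for RNA and shifts of 0.00541 to 0.0649 in KO2, 13.9% to 31.1% for footprints in KO1, 0% to 0% for TE in KO3 and 0% to 3.08% for TE differing between clones. The cause was not tested. Of 401 alternative values of 37 single-gene results, 379 kept their call and 22 lost it with the same direction, in Myo15b, Bahcc1, Helz2, Syne2, Mgam, Itpr2 and Trrap.

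With the replicate number as a block, 18.3% were called for footprints in KO2, 0.775% for TE in KO1 and 6.15% for TE differing between clones. Lines of 1 assay with the same number correlated at -0.00 to 0.37, with 9 of 12 pairs over 0.1. As 3 were not, and no label ties a number to a batch or day, the number was not taken to pair the lines. The lysate term gave 0.775% for TE in KO1 and 8.46% for TE differing between clones, was added after the data were seen for the latter and for the mean of the clones, and changed no other TE call of a long gene in a single clone. Leaving out the 7 long genes with counts on a short transcript, also chosen after seeing the data, changed no count of calls by over 1.5 times.

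Each KO line is 1 clone with 2 lysates, so a KO line cannot be told apart from its founder cell. Footprints limit the TE tests, since the smallest Ribo-seq library, of KO1, held 1138943 counts and the median standard error of a TE change of a long gene was 0.17, 0.167 and 0.169 in KO1, KO2 and KO3. Counts sum over whole coding sequences, so the position of ribosomes along them was not analysed here. Reads shared by transcripts or overlapping genes count more than once.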
